A study of Homo sapiens with 28 samples.

Results

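Genes that make, import, move and store cholesterol were followed in 4 human liver tumour lines, each grown as tumours in ovo and as cultures in vitro. The group is a list of 29 genes named by symbol, not chosen by a threshold on their values. Of these, 28 have an amplicon among the 18961 of the deposited table, and all 28 passed the filter on low reads that left 13100 genes. MSMO1, an enzyme of the demethylation steps, was not analysed here. By role, 7 of the 28 lead from acetyl-CoA to farnesyl diphosphate, 10 lead from there through squalene to cholesterol, 4 belong to the SREBP2 control system, 5 serve uptake and transfer, and 2 esterify cholesterol.

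Cells build cholesterol from acetyl-CoA through mevalonate, isoprenoid diphosphates, squalene and lanosterol, and the liver is a main site of this synthesis. The pathway is switched on by SREBP2, the product of SREBF2, which SCAP and the INSIG proteins hold in the endoplasmic reticulum while sterols are plentiful. When sterols run low, SCAP carries SREBP2 to the Golgi, where proteases release its active part, which then raises transcription of the enzymes and of INSIG1.

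HepG2, Hep3B, HuH7 and PLC/PRF/5 are established lines from human liver cancers, and no other genotype or treatment is labelled. Tumours grew from cells grafted at embryonic day 9 onto the chorioallantoic membrane, a vascular membrane of the chick egg (white leghorn), and were taken at embryonic day 18, with 4 libraries per line. Cultures of the same lines gave 3 libraries per line. RNA came from a Midi RNeasy kit for tumours and a Mini RNeasy kit for cultures, so kit and growth condition cannot be told apart. No label says that libraries of a group came from separate eggs or cultures, so the p-values cover library-to-library spread alone, and that spread may be technical.

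Each gene was read by 1 targeted amplicon, so levels are compared between samples and not between genes. Depth was 6085750 to 15086465 reads in the 16 tumour libraries and 6205368 to 8662998 reads in the 12 culture libraries. A level of 3 reads was 0.199 to 0.493 CPM (read counts scaled to a common library total), a floor that covers counting error only, since the reads carry no molecular identifiers. Among 392 olfactory receptor amplicons, tumours of a line had reads for 19.8 to 27.7% on average and cultures for 2.72 to 6.80%. In bulk samples, fewer cells of a type and less RNA per cell cannot be told apart, and the share of host cells was not measured.

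Below, levels are CPM after TMM scaling, with mean ± SD over the 4 tumours and 3 cultures of a line. A log2 fold change is tumours over cultures of log2(CPM + 1), so the change of a gene at a few CPM comes out too small. Adjusted p-values are limma's with Benjamini-Hochberg adjustment over all 13100 genes, and calls below mean an adjusted p under 0.05.

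The lines differed in what their tumours did. In HuH7 tumours 22 of the 28 members fell and 0 rose, while 19.8% of all genes tested were called lower and 23.6% higher. With HuH7, 1 member was higher at an unadjusted p under 0.05, edgeR also called 0 higher, and DESeq2 called 1, SCAP. In HepG2 tumours 6 members fell and 1 rose, where 13% of all genes were lower and 12.1% higher. Hep3B tumours had 9 members higher and 5 lower, where 24.6% of all genes were higher and 27.4% lower. PLC/PRF/5 tumours had 3 members higher, where 11.9% of all genes were, and 0 lower, where 5.61% were. For PLC/PRF/5, 2 members were lower at an unadjusted p under 0.05, and edgeR called 0 and DESeq2 called 2 lower. The median log2 fold change of the members was -1.82 in HuH7, beside 0.01 for all genes tested. It was -0.34 in HepG2 (all genes -0.01), -0.11 in Hep3B (-0.05) and 0.23 in PLC/PRF/5 (0.07). Averaged over the 4 lines, 4 members were higher (PMVK, TM7SF2, SCAP and SOAT2) and 18 lower, where 33.7% of all genes were higher and 32.6% lower.

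**Figure D1:**
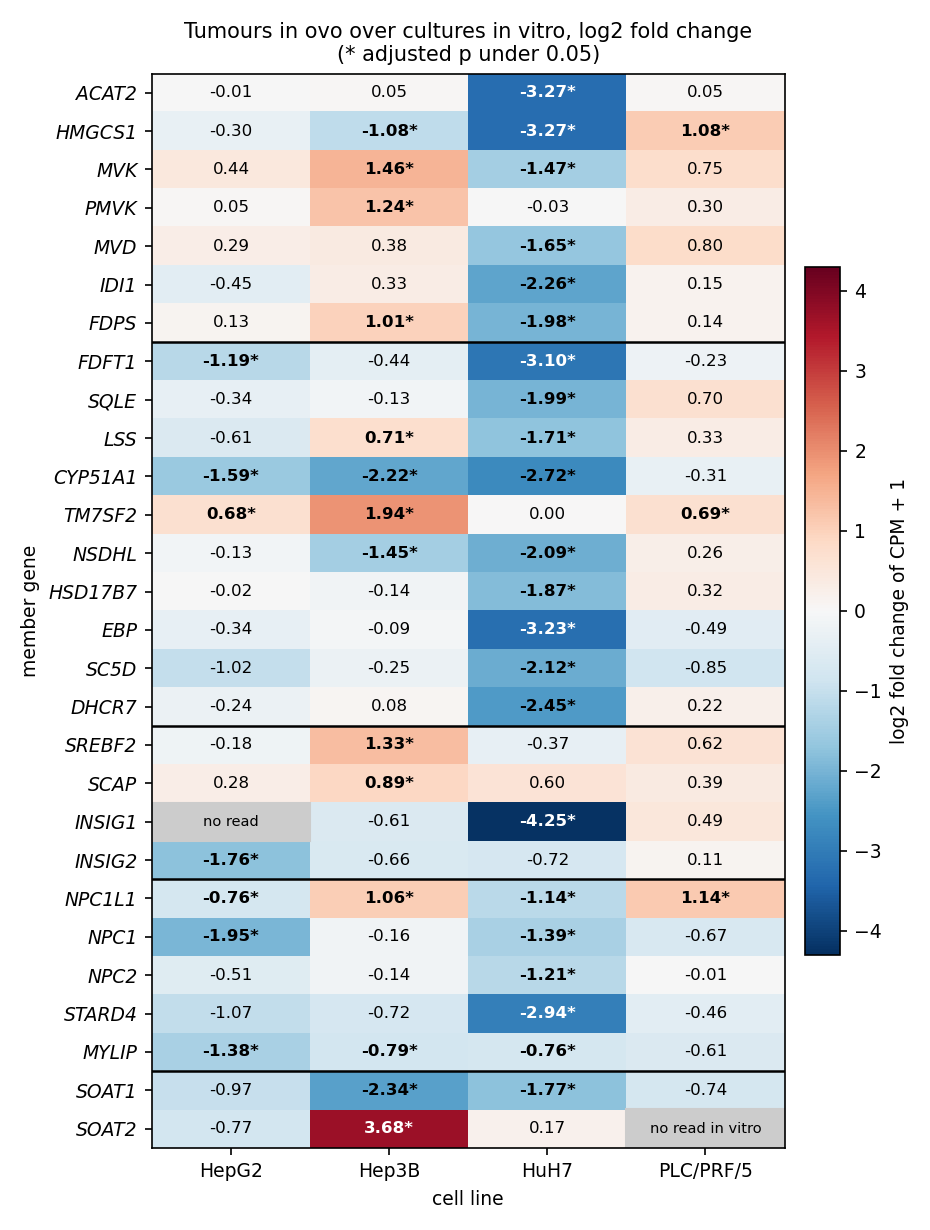
Log2 fold change of the 28 measured members (rows, grouped by role) in tumours over cultures of the 4 lines (columns). An asterisk marks an adjusted p under 0.05 and grey cells had no read in cultures or in either setting; HuH7 holds 22 called falls, down to -4.25 for INSIG1, and Hep3B holds 9 called rises.

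Each of the 28 members was called in at least 1 line. A total of 14 were called lower in HuH7 and lower in no other line. CYP51A1 and MYLIP fell in HepG2, Hep3B and HuH7, and 0 members fell in all 4 lines. HMGCS1, MVK, FDPS, LSS and NPC1L1, 5 members, were called in opposite directions in different lines. The shares of all genes with these patterns across lines were not computed, so the pattern counts are not read as particular to the members. The interaction of line and condition, which tests whether the change differs between lines, was called for 24 of 28 members, against 41.8% of all genes tested. It was not called for SC5D, SCAP, SOAT1 and MYLIP. Levels differed between the 4 lines for 25 of 28 members in tumours and 23 of 28 in cultures, beside 85.8% of all genes in tumours and 71.5% in cultures. All tumours of a line lay below all its cultures for 23 members in HuH7 (23% of all genes), 11 in HepG2 (21.3%), 6 in Hep3B (28.8%) and 3 in PLC/PRF/5 (16.1%), while all tumours lay above all cultures for 9 members in Hep3B (26.8%), 4 in PLC/PRF/5 (23.4%), 1 in HepG2 (18.2%) and 0 in HuH7 (25.5%).

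At the entry to the pathway the changes in HuH7 were the largest of its enzymes. HMGCS1, which makes HMG-CoA, had 312, 109.7, 132 and 142 CPM in HuH7 tumours, against 1556, 1574 and 1526 CPM in HuH7 cultures (log2 fold change -3.27, SE 0.29, adjusted p = 2.92e-09). All 4 tumours lay below all 3 cultures, and the first tumour stood above the other 3. HMGCS1 went the other way in PLC/PRF/5, with 137, 90.0, 160.5 and 141 CPM in tumours against 60.8, 61.1 and 59.6 CPM in cultures (log2 fold change 1.08, SE 0.29, adjusted p = 0.00928). No library of one group reached the other there either. In Hep3B it had 195, 129, 82.1 and 123 CPM in tumours against 268, 281 and 253 CPM in cultures (log2 fold change -1.08, SE 0.29, adjusted p = 0.00324), at -2.04 with total counts alone and a call lost when the trend with amplicon GC content and length was removed (-0.65, adjusted p = 0.0936). HepG2 tumours had 46.8, 83.5, 91.5 and 79.9 CPM and HepG2 cultures 94.5, 90.9 and 86.4 CPM, which overlapped (log2 fold change -0.30, SE 0.29, adjusted p = 0.472). The amplicon behind these values is shown because HMGCS1 had the smallest interaction p of the members (adjusted p = 4.48e-08). It lies at chr5:43292534-43292876 of GRCh38, minus strand, in coding exons 9 and 10, and capitals mark the bases of exon 10.
HMGCS1 amplicon: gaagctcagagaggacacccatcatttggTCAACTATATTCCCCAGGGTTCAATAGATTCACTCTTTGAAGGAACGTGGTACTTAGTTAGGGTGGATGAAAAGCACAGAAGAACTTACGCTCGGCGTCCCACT

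ACAT2, the cytosolic thiolase that joins 2 acetyl-CoA, had 251, 107, 97.9 and 97.0 CPM in HuH7 tumours, against 1236, 1259 and 1189 CPM in HuH7 cultures (log2 fold change -3.27, SE 0.30, adjusted p = 6.08e-09). The first tumour was again the highest, still far below the cultures. In HepG2 the tumours, at 404, 538, 467 and 548 CPM, lay around the cultures, at 485, 494 and 491 CPM. Hep3B tumours had 806, 1136, 1643 and 1317 CPM and Hep3B cultures 1112, 1192 and 1128 CPM. PLC/PRF/5 tumours had 470.3, 200.1, 453 and 530.3 CPM and PLC/PRF/5 cultures 381, 345 and 400.1 CPM. None of these 3 lines was called for ACAT2, and the interaction was (adjusted p = 4.31e-07).

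Of the 7 members of the mevalonate arm, 6 fell in HuH7 tumours (median of the 7, -1.98). MVK, mevalonate kinase, had 74.0 ± 24.1 CPM in HuH7 tumours and 197 ± 6.52 CPM in HuH7 cultures (log2 fold change -1.47, and -2.27 with the GC and length trend removed). MVD, the decarboxylase, had 7.71 ± 4.04 CPM in those tumours and 24.0 ± 1.58 CPM in those cultures (-1.65). FDPS, farnesyl diphosphate synthase, had 455 ± 272 CPM in HuH7 tumours and 1576 ± 50 CPM in HuH7 cultures (-1.98). IDI1, the isomerase that precedes it, had 1.27 ± 0.671 CPM in HuH7 tumours and 9.66 ± 1.92 CPM in HuH7 cultures (-2.26), read by an amplicon outside the coding sequence. PMVK, phosphomevalonate kinase, was the member of the arm that was not called, with 78.5 ± 7.59 CPM in HuH7 tumours and 80.0 ± 2.47 CPM in HuH7 cultures.

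In Hep3B tumours, MVK, PMVK and FDPS were called higher. MVK had 330.2 ± 117 CPM in Hep3B tumours and 114 ± 6.96 CPM in Hep3B cultures (log2 fold change 1.46, SE 0.27, adjusted p = 0.000118), and PMVK 75 ± 18.2 CPM in Hep3B tumours and 30.5 ± 2.69 CPM in Hep3B cultures (log2 fold change 1.24, SE 0.17, adjusted p = 2.81e-06). FDPS had 1935 ± 584 CPM in Hep3B tumours and 929 ± 48.3 CPM in Hep3B cultures (log2 fold change 1.01, SE 0.36, adjusted p = 0.0226). These rises shrank under other settings. With total counts alone MVK was at 0.49 (adjusted p = 0.0219), PMVK at 0.28 (adjusted p = 0.256) and FDPS at 0.029 (adjusted p = 0.934). With the GC and length trend removed they were at 0.44 (adjusted p = 0.0392), 0.69 (adjusted p = 0.00120) and 0.16 (adjusted p = 0.609). Leaving out tumour 2 or 3, or culture 1 or 2, also ended the FDPS call (adjusted p = 0.0501 to 0.0773).

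Of the 10 measured enzymes from squalene to cholesterol, 9 fell in HuH7 tumours (median of the 10, -2.11). EBP, a sterol isomerase, had 49.4 ± 14.3 CPM in HuH7 tumours and 456 ± 5.65 CPM in HuH7 cultures (log2 fold change -3.23, SE 0.31, adjusted p = 1.41e-08). FDFT1, squalene synthase, had 114 ± 57.3 CPM in HuH7 tumours and 891 ± 29.5 CPM in HuH7 cultures (-3.10). DHCR7, which makes cholesterol in the last step of one branch, had 284 ± 139 CPM in HuH7 tumours and 1439 ± 29.1 CPM in HuH7 cultures (-2.45). SQLE, squalene epoxidase, LSS, lanosterol synthase, and the sterol enzymes NSDHL, HSD17B7 and SC5D fell by 1.99, 1.71, 2.09, 1.87 and 2.12 on the log2 scale in HuH7. Outside HuH7, FDFT1 fell in HepG2 (-1.19, adjusted p = 0.0120) and NSDHL in Hep3B (-1.45, adjusted p = 7.04e-05, and -2.33 with total counts alone). LSS rose in Hep3B tumours (0.71, adjusted p = 0.0184), but its sign turned with total counts alone (-0.26). The call was lost with the GC and length trend removed (0.12, adjusted p = 0.684) and without tumour 4 or culture 1 (adjusted p = 0.0548 to 0.0553).

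CYP51A1, the lanosterol demethylase, was read at a few CPM, and its amplicon sequence also occurs in AC000120.2, so its reads cannot be assigned to 1 gene. HuH7 tumours had 4, 2, 0 and 20 reads (0.514, 0.215, 0 and 1.71 CPM), against 8.90, 7.57 and 10.3 CPM in HuH7 cultures (log2 fold change -2.72, SE 0.42, adjusted p = 1.86e-05). HepG2 tumours had 15, 9, 0 and 7 reads (2.23, 1.44, 0 and 1.08 CPM), against 6.49, 5.06 and 3.89 CPM in HepG2 cultures (log2 fold change -1.59, SE 0.42, adjusted p = 0.00686). Every tumour of both lines lay below every culture, though edgeR did not call HepG2 (adjusted p = 0.0546). With the GC and length trend removed the fold changes were -1.48 in HuH7 and -0.93 in HepG2. Hep3B tumours had 33, 0, 1 and 0 reads (3.51, 0, 0.259 and 0 CPM), against 53, 36 and 62 reads (6.99, 4.91 and 6.90 CPM) in Hep3B cultures (log2 fold change -2.22, SE 0.42, adjusted p = 0.000148). The Hep3B call was lost with the GC and length trend removed (-0.61, adjusted p = 0.0779), and the first Hep3B tumour held nearly all reads of its group. PLC/PRF/5 tumours had 5.98, 4.37, 3.97 and 4.94 CPM and overlapped PLC/PRF/5 cultures at 4.5, 8.40 and 6.13 CPM.

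TM7SF2, a sterol C14 reductase, was the enzyme of these steps called lower in 0 of the 4 lines. Hep3B tumours had 536, 760.3, 1249 and 692 CPM, against 194, 208 and 200.1 CPM in Hep3B cultures (log2 fold change 1.94, SE 0.23, adjusted p = 2.47e-07), a rise of 0.96 with total counts alone and 1.29 with the GC and length trend removed. HepG2 tumours had 95.5, 118, 91.1 and 125 CPM, against 59.0, 68.1 and 71.4 CPM in HepG2 cultures (log2 fold change 0.68, SE 0.23, adjusted p = 0.0288). In both lines the lowest tumour lay above the highest culture, but the HepG2 call was lost with total counts alone (adjusted p = 0.197) and with the GC and length trend removed (adjusted p = 0.0948). It was also lost without tumour 2 or 4 or any 1 culture (adjusted p = 0.0561 to 0.124). PLC/PRF/5 tumours had 9.32, 7.06, 9.75 and 10 CPM, against 6.16, 4.58 and 4.83 CPM in PLC/PRF/5 cultures (log2 fold change 0.69, SE 0.23, adjusted p = 0.0351), a call lost with total counts alone (adjusted p = 0.175), with the GC and length trend removed (adjusted p = 0.0911) and by DESeq2 (adjusted p = 0.0781). Leaving out tumour 1, 3 or 4 or culture 2 or 3 ended it too (adjusted p = 0.0717 to 0.133). HuH7 tumours, at 50.7, 61.2, 29.8 and 44.8 CPM, overlapped HuH7 cultures, at 43.7, 50.7 and 41.2 CPM.

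**Figure D2:**
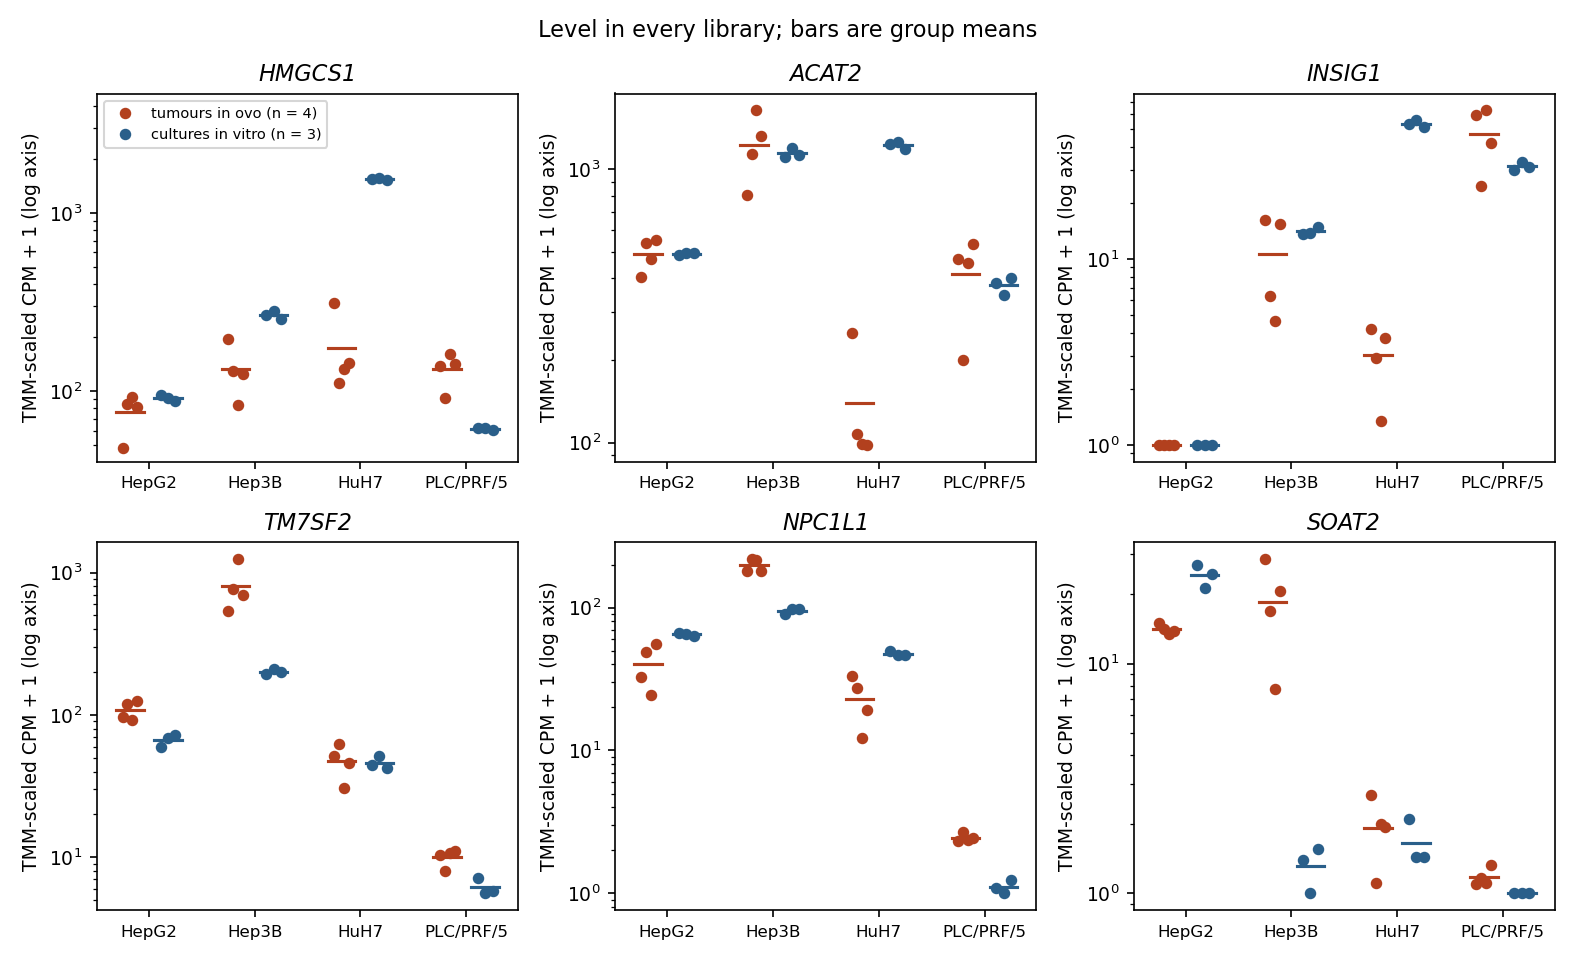
Level of 6 members in every library (TMM-scaled CPM + 1, log axis), tumours left of cultures in each line, bars at group means. HuH7 tumours lie below HuH7 cultures for HMGCS1, ACAT2, INSIG1 and NPC1L1, Hep3B tumours lie above Hep3B cultures for TM7SF2, NPC1L1 and SOAT2, and INSIG1 has no read in HepG2.

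Of the 4 genes of the SREBP2 system, INSIG1 fell in HuH7. SREBF2, SCAP and INSIG2 were not called there, though other settings or a left-out library called each of them. INSIG1, the anchor that is itself switched on by SREBP2, had 25, 18, 2 and 32 reads (3.21, 1.94, 0.337 and 2.74 CPM) in HuH7 tumours, against 51.9, 54.8 and 50.4 CPM in HuH7 cultures (log2 fold change -4.25, SE 0.38, adjusted p = 4.75e-09). The summed 77 and 1472 reads gave a ratio of 0.0424 (exact 95% interval for counting error 0.0333 to 0.0533). Hep3B tumours had 15.2, 5.29, 3.62 and 14.3 CPM and overlapped Hep3B cultures at 12.7, 12.8 and 13.8 CPM (log2 fold change -0.61, SE 0.38, adjusted p = 0.185). PLC/PRF/5 tumours had 58.2, 23.5, 62.0 and 40.8 CPM and overlapped PLC/PRF/5 cultures at 29.2, 32.3 and 30.0 CPM (log2 fold change 0.49, SE 0.38, adjusted p = 0.430). In HepG2 INSIG1 had 0 reads in all tumours and cultures. After TMM scaling this allows up to 0.447 to 0.592 CPM per tumour and 0.334 to 0.423 CPM per culture, so no fold is given. Both the lowest fold change of the members and this absence of reads rest on the amplicon printed here, at chr7:155301601-155302350 of GRCh38, plus strand, in coding exons 3 and 4, with the bases of exon 4 in capitals.
INSIG1 amplicon: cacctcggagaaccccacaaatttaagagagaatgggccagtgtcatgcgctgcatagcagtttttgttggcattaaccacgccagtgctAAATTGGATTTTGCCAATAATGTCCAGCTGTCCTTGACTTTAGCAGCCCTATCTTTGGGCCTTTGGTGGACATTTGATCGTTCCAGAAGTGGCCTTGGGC

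SREBF2 in HuH7 depended on the processing. Its tumours had 1098, 674, 856 and 376 CPM and spanned the cultures at 969, 892 and 846 CPM (log2 fold change -0.37, SE 0.37, adjusted p = 0.437), but it was called lower with total counts alone (-0.62, adjusted p = 0.0435) and with the GC and length trend removed (-1.13, adjusted p = 0.000991). Hep3B tumours had 1352, 1621, 2697 and 945 CPM, against 596, 639 and 596 CPM in Hep3B cultures (log2 fold change 1.33, SE 0.37, adjusted p = 0.00407). This call was lost with total counts alone (0.35, adjusted p = 0.215) and with the GC and length trend removed (0.25, adjusted p = 0.433). HepG2 had 416 ± 131 CPM in tumours and 451 ± 53.1 CPM in cultures, and PLC/PRF/5 628 ± 251 CPM in tumours and 385 ± 78.5 CPM in cultures, neither called. SCAP, the escort of SREBP2, had 253 ± 65.0 CPM in Hep3B tumours and 133 ± 2.03 CPM in Hep3B cultures (log2 fold change 0.89, SE 0.28, adjusted p = 0.0111), and its sign turned with total counts alone (-0.084) and its call was lost with the GC and length trend removed (0.45). In HuH7 SCAP had 247 ± 113 CPM in tumours and 151 ± 9.27 CPM in cultures (adjusted p = 0.0886), called without tumour 4 (0.84, adjusted p = 0.0155). INSIG2, the second anchor, had 16, 8, 0 and 6 reads (2.38, 1.28, 0 and 0.922 CPM) in HepG2 tumours, against 57, 37 and 43 reads (8.04, 4.56 and 4.78 CPM) in HepG2 cultures (log2 fold change -1.76, SE 0.32, adjusted p = 0.000166), with no overlap, and at -1.15 with the GC and length trend removed. It was not called in the other lines, but was called lower in Hep3B without Hep3B culture 3 or HepG2 tumour 3 (adjusted p = 0.0393 to 0.0464) and in HuH7 without HuH7 tumour 4 or HepG2 tumour 1 or 3 (adjusted p = 0.0309 to 0.0485). In Hep3B, at 0 to 2 reads per tumour, the direction of INSIG2 depended on the processing. Some other settings called it lower, such as total counts alone (-0.79, adjusted p = 0.0491). With the GC and length trend removed it was called higher (0.90, adjusted p = 0.00562).

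All 5 uptake and transfer genes fell in HuH7 tumours, and 3 of the 5 fell in HepG2 tumours. NPC1L1, a membrane transporter that takes up sterols from bile in the liver, was called in all 4 lines. HuH7 tumours had 32.1, 26.6, 11.3 and 18.3 CPM, against 48.8, 45.6 and 45.6 CPM in HuH7 cultures (log2 fold change -1.14, SE 0.26, adjusted p = 0.00103). HepG2 tumours had 31.9, 48.0, 23.3 and 55.0 CPM, against 65.7, 64.5 and 62.4 CPM in HepG2 cultures (log2 fold change -0.76, SE 0.26, adjusted p = 0.0304), a call lost by edgeR (adjusted p = 0.0655) and DESeq2 (adjusted p = 0.0520), and without tumour 1 or 3 or any 1 culture (adjusted p = 0.0644 to 0.129). Hep3B tumours had 179, 219, 213 and 179 CPM, against 89.6, 96.4 and 96.4 CPM in Hep3B cultures (log2 fold change 1.06, SE 0.26, adjusted p = 0.00152), a call lost with total counts alone (0.08, adjusted p = 0.844). In these 3 lines tumours and cultures did not overlap. Its amplicon is shown because its direction differed between lines, at chr7:44515863-44516148 of GRCh38, minus strand, coding exons 18 and 19, with bases of exon 19 in capitals.
NPC1L1 amplicon: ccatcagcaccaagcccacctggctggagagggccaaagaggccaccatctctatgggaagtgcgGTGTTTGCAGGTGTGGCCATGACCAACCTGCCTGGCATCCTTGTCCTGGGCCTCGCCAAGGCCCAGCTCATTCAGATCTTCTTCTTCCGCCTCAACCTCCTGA

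In PLC/PRF/5, NPC1L1 had 13, 20, 12 and 13 reads (1.32, 1.68, 1.36 and 1.43 CPM) in tumours, against 1, 0 and 2 reads (0.0978, 0 and 0.236 CPM) in cultures (log2 fold change 1.14, SE 0.26, adjusted p = 0.00246). The summed 58 and 3 reads gave a ratio of 14.2 (exact 95% interval for counting error 4.63 to 70.9), and the call was lost with a pseudocount of 5 CPM. The difference is 0.676% of the mean of Hep3B tumours. That of TM7SF2 in PLC/PRF/5 is 0.474%, and that of HMGCS1 is 41.2% of the mean of HuH7 tumours. Beside this, 59 genes with no read in PLC/PRF/5 cultures and at least 100 CPM in tumours of another line were all read in PLC/PRF/5 tumours, at a median of 0.354% of that level (quartiles 0.165 and 0.793%). The part of such low reads in the NPC1L1 and TM7SF2 calls was not tested.

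NPC1 and NPC2 pass cholesterol out of the lysosome. NPC1 had 27.4, 30.7, 14.8 and 24.4 CPM in HepG2 tumours, against 97.2, 93.1 and 91.0 CPM in HepG2 cultures (log2 fold change -1.95, SE 0.32, adjusted p = 5.11e-05). It was the largest fall of a member in HepG2, with every tumour below every culture. In HuH7 NPC1 had 7.80 ± 3.50 CPM in tumours and 20.7 ± 0.768 CPM in cultures (adjusted p = 0.00130). NPC2 fell in HuH7, with 275 ± 109 CPM in tumours and 597 ± 17.6 CPM in cultures (adjusted p = 0.000364), and in HepG2 it had 377 ± 41.5 CPM in tumours and 535 ± 4.95 CPM in cultures (adjusted p = 0.129). STARD4, a cytosolic sterol carrier, had 0.804 ± 0.602 CPM in HuH7 tumours and 12.2 ± 0.679 CPM in HuH7 cultures (log2 fold change -2.94, SE 0.42, adjusted p = 6.19e-06). MYLIP, a ubiquitin ligase that acts on lipoprotein receptors, had 2.09 ± 0.694 CPM in HepG2 tumours and 6.94 ± 0.638 CPM in HepG2 cultures (log2 fold change -1.38, SE 0.26, adjusted p = 0.000306). Its smaller falls in Hep3B (-0.79) and HuH7 (-0.76) were lost without Hep3B culture 2 (adjusted p = 0.0501) and without HuH7 tumour 3 or culture 1 or 2 (adjusted p = 0.0611 to 0.105). With the GC and length trend removed MYLIP was at 0.18 in Hep3B and -0.01 in HuH7.

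The esterifying enzymes moved apart in Hep3B. SOAT2, the form of hepatocytes and enterocytes, had 259, 63, 26 and 85 reads (27.6, 15.9, 6.73 and 19.6 CPM) in Hep3B tumours, against 3, 0 and 5 reads (0.396, 0 and 0.556 CPM) in Hep3B cultures (log2 fold change 3.68, SE 0.31, adjusted p = 1.01e-09). The summed 433 and 8 reads gave a ratio of 60.0 (exact 95% interval for counting error 30.2 to 139.9). The summed level of 12 hepatocyte markers was 123033 to 216761 CPM in Hep3B tumours and 17775.7 to 18794.7 CPM in Hep3B cultures. Of the 12, 9 were called higher, 1 lower and 2 neither, where 24.6% of all genes were higher and 27.4% lower. Their part in the SOAT2 result was not tested. SOAT1, the form of most tissues, had 18, 0, 0 and 6 reads (1.92, 0, 0 and 1.39 CPM) in Hep3B tumours, against 56, 54 and 63 reads (7.39, 7.36 and 7.01 CPM) in Hep3B cultures (log2 fold change -2.34, SE 0.43, adjusted p = 0.000108). With the GC and length trend removed SOAT1 was at -0.81 in Hep3B and -0.61 in HuH7, both called. SOAT1 also fell in HuH7, with 0.970 ± 1.09 CPM in tumours and 5.09 ± 0.450 CPM in cultures (adjusted p = 0.00234). SOAT2 had 14, 13.1, 12.4 and 12.9 CPM in HepG2 tumours, against 25.8, 20.4 and 23.5 CPM in HepG2 cultures, all tumours lower (adjusted p = 0.0678, and 0.0173 to 0.0452 without Hep3B tumour 1 or 3 or HuH7 tumour 2, which share its estimate of spread). HuH7 tumours had 1.67, 0.108, 1.01 and 0.943 CPM and HuH7 cultures 1.11, 0.439 and 0.440 CPM. PLC/PRF/5 tumours had 1, 2, 1 and 3 reads and PLC/PRF/5 cultures 0, at the floor, so no fold is given. The SOAT2 amplicon, shown because nearly no read of it came from Hep3B cultures, lies at chr12:53119194-53121369 of GRCh38, plus strand, coding exons 10 to 12, with the bases of exon 11 in capitals.
SOAT2 amplicon: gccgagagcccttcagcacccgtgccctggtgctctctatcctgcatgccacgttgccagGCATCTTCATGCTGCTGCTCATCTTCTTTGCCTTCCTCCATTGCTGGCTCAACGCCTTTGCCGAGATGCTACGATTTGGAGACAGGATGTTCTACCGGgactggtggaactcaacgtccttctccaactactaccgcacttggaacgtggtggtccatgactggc

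The direction of the Hep3B counts depended on scaling. TMM factors were 0.447 to 0.711 in Hep3B tumours, whose 20 most abundant genes took 36.7 to 45.5% of reads, against 21.8 to 22.7% in Hep3B cultures. With total counts alone the median of all genes shifted by -0.69 in Hep3B, beside -0.16 in HepG2, -0.14 in HuH7 and -0.14 in PLC/PRF/5, and in Hep3B 3 members were higher (MVK, TM7SF2 and SOAT2) and 16 lower. With the GC and length trend removed, 6 were higher and 2, NSDHL and SOAT1, lower. In HuH7 23 members were lower with total counts alone, SREBF2 added, and 22 with that trend removed, of which 21 were shared, MYLIP being lost and SREBF2 gained. The shares of all genes called under these settings are not given here, so these counts are not read as particular to the members.

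HuH7 cultures and HuH7 tumours were each set against the mean of the other 3 lines in the same setting, a comparison added after the values were seen. In cultures, 17 of 28 members were higher in HuH7 than in the mean of the other 3 lines and 2 lower, against 23.6% and 20.6% of all genes. HMGCS1 stood 3.76 higher on the log2 scale (SE 0.25, adjusted p = 4.19e-12), INSIG1 2.81 and EBP 2.45. In tumours, 3 members were higher in HuH7 (HMGCS1, PMVK and MYLIP) and 17 lower, against 30.1% and 26.8% of all genes. The change itself was lower in HuH7 than the mean change of the other lines for 19 members and higher for 0, against 7.6% and 12% of all genes, with 0 higher also at an unadjusted p under 0.05. HuH7 cultures had the highest mean of the 4 lines for 19 of 28 members (23.4% of all genes), HuH7 tumours the lowest for 14 (20%), and Hep3B tumours the highest for 13 (19.7%).

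**Figure D3:**
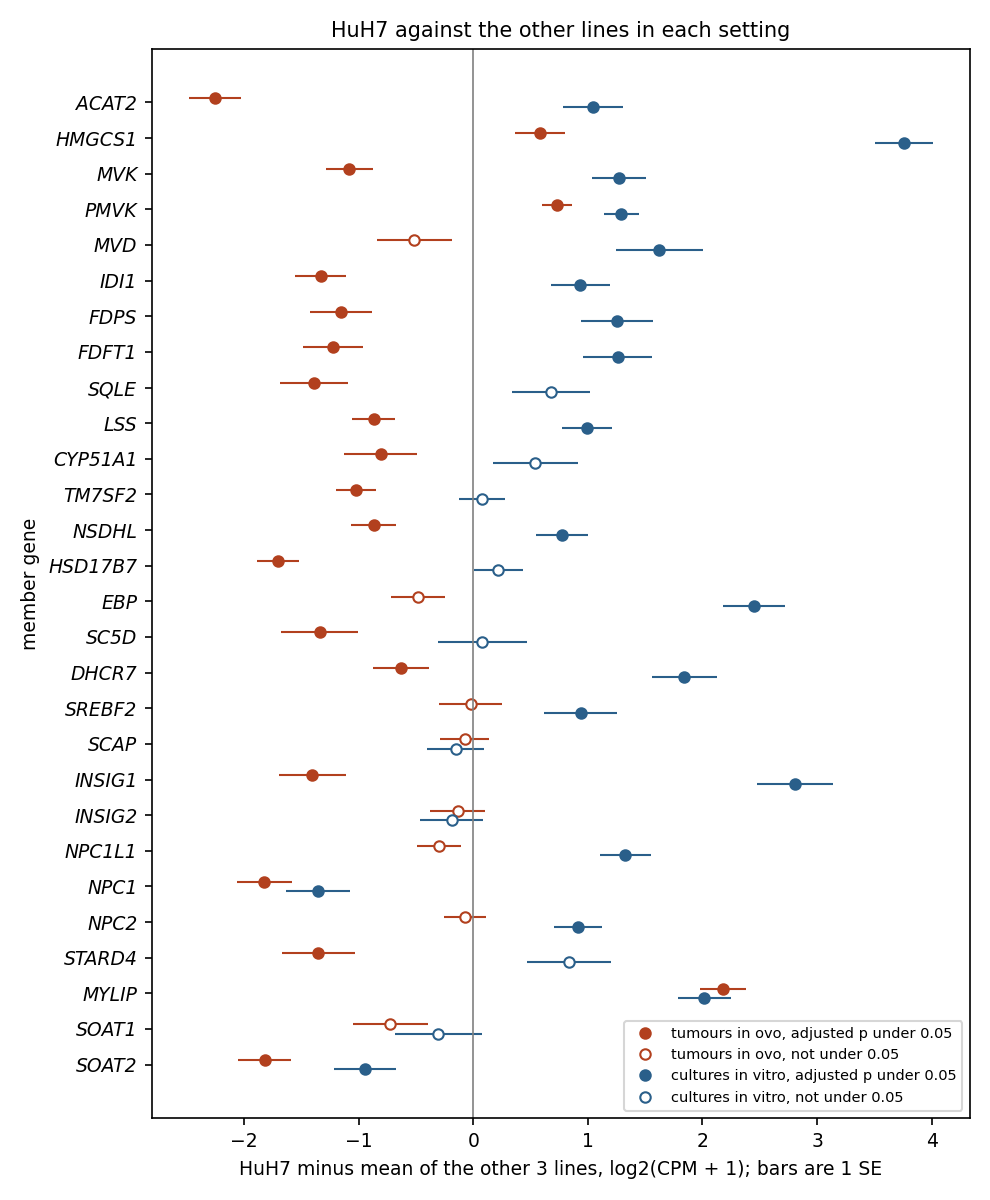
HuH7 minus the mean of the other 3 lines for each member on the log2(CPM + 1) scale, in tumours (red) and in cultures (blue), bars 1 SE, filled points with an adjusted p under 0.05. In cultures 17 members lie higher in HuH7, and in tumours 17 lie lower.

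The mean log2(CPM + 1) level of the 17 enzymes, given without a test, was 5.14 ± 0.270 in HuH7 tumours and 7.21 ± 0.0124 in HuH7 cultures. It was 5.57 ± 0.227 in HepG2 tumours and 5.84 ± 0.0252 in HepG2 cultures, and 6.62 ± 0.0441 in Hep3B tumours and 6.53 ± 0.0401 in Hep3B cultures. PLC/PRF/5 had 5.94 ± 0.370 in tumours and 5.71 ± 0.0495 in cultures. Its second tumour was the lowest of the 4 for 17 of 28 members, against 34% of all genes. Without that tumour 7 members were higher in PLC/PRF/5, with HSD17B7, MVK, SQLE and SREBF2 added. The share of all genes called higher in that fit is not given here. Tumours spread more than cultures, with a median coefficient of variation over members of 49.5% in HuH7 tumours and 4.29% in HuH7 cultures. All genes showed the same kind of gap, 44.1% in HuH7 tumours and 8.36% in HuH7 cultures.

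**Figure D4:**
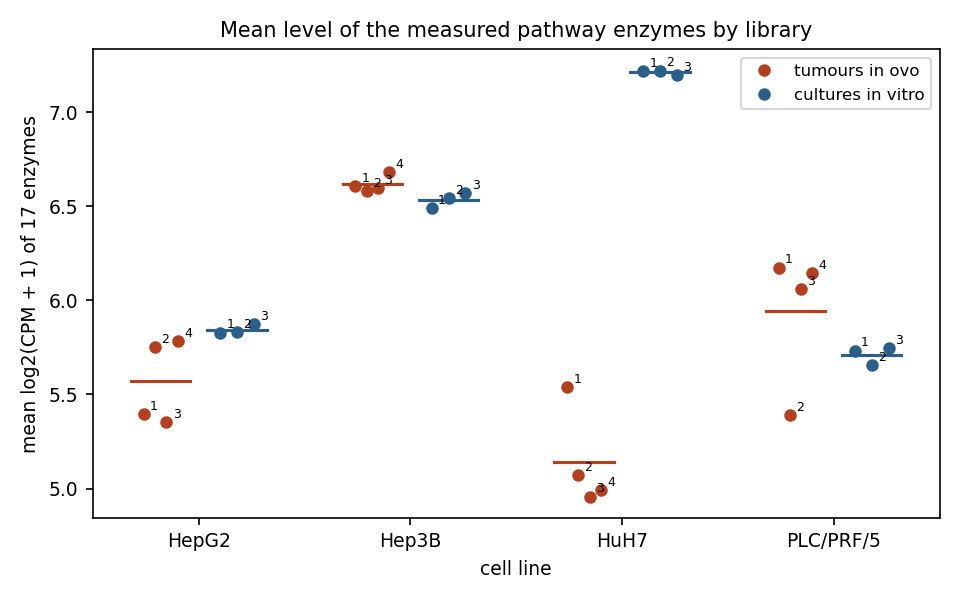
Mean log2(CPM + 1) of the 17 enzymes in each library, tumours left of cultures in each line, numbers giving the replicate and bars the group means. HuH7 tumours lie at 4.96 to 5.54 and HuH7 cultures at 7.20 to 7.22, while the Hep3B groups lie at 6.58 to 6.68 in tumours and 6.49 to 6.57 in cultures.

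Markers of hepatocytes in HuH7 had a summed level of 12 genes of 4111.92 to 6072.85 CPM in tumours and 9433.59 to 9659.23 CPM in cultures, none at 0. Of the 12, 7 were called lower, 0 higher and 5 neither, where 19.8% of all genes were lower and 23.6% higher. Summed fibroblast markers were 553 to 864 CPM in HuH7 tumours and 353 to 372 CPM in HuH7 cultures, with DCN at 0 in cultures. Of the 6 that passed the filter, 3 were called higher, 1 lower and 2 neither. Endothelial markers were 5.66 to 21.0 CPM in HuH7 tumours and 21.4 to 23.3 CPM in HuH7 cultures, with KDR and EMCN at 0 in both, and leukocyte markers were 7.72 to 11.4 CPM in HuH7 tumours and 36.7 to 41.3 CPM in HuH7 cultures. Of those that passed the filter, 1 of 3 endothelial and 1 of 4 leukocyte markers were called lower and 0 higher. In PLC/PRF/5 the hepatocyte sum was 623 to 1650.1 CPM in tumours and 20.3 to 25.9 CPM in cultures, where ALB, TTR and FOXA2 were at 0. HepG2 had 122232 to 204432 CPM in tumours and 75214.6 to 81421.1 CPM in cultures. Of the 12 hepatocyte markers, 9 were called higher in PLC/PRF/5 and 4 in HepG2, with 0 lower in both. Beside this, 11.9% of all genes were higher in PLC/PRF/5 and 12.1% in HepG2. The marker sum of PLC/PRF/5 tumours is low beside the 123033 to 216761 CPM of Hep3B tumours. The 59 genes described above with no read in PLC/PRF/5 cultures were read in its tumours at a median of 0.354% of their level in another line's tumours. The part of such low reads in the PLC/PRF/5 marker calls was not tested. Nor was the part of the marker shifts in the members' changes.

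Promoter sequences from RefSeq (GRCh38.p14) were found for 24 of the 28 members, and not for ACAT2, SOAT2, FDFT1 and SQLE. Windows of 300 bases around each start were searched on both strands for CCAAT, the box bound by NF-Y, and for CACNCCAC, letters of a sterol regulatory element. CCAAT occurred in 19 of 24 members (79.2%), against 42.8% of 10275 tested genes with a promoter, and CACNCCAC in 4 of 24 (16.7%, IDI1, INSIG1, SC5D and SREBF2), against 8.06%. Of the 19 members with a promoter that fell in HuH7, 17 held CCAAT, as did 2 of the 5 that were not called lower. CACNCCAC was held by 3 of the 19 and by 1 of the 5. The same split over all genes was not computed. A match is a description of letters and not of binding. The 250 bases before the start are shown for INSIG1 (plus strand, chr7:155297628-155297877) and HMGCS1 (minus strand, chr5:43313413-43313662), which had the lowest HuH7 fold changes, and for SREBF2 (plus strand, chr22:41832855-41833104), whose call there depended on the setting, with matches in capitals. HMGCS1 has another window in the table, which holds neither motif and is not shown.
INSIG1 promoter: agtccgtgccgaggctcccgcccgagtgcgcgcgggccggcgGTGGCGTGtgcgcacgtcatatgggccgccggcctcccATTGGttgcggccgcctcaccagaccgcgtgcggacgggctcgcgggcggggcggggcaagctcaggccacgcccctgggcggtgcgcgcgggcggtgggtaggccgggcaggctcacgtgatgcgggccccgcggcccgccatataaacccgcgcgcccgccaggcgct
HMGCS1 promoter: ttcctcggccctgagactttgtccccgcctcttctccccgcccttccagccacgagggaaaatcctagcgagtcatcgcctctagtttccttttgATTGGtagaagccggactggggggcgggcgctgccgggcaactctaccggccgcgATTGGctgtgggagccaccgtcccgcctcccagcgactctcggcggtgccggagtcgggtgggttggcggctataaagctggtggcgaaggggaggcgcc
SREBF2 promoter: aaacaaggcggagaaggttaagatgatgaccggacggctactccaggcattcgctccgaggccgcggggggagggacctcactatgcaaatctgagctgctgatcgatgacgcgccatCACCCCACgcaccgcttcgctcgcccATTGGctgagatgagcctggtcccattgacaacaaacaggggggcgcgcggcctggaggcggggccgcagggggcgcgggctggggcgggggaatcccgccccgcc

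Neighbouring pathways were read from lists of named genes, whose counts stand beside the shares of all genes called. Those were 13% lower and 12.1% higher for HepG2, 27.4% lower and 24.6% higher for Hep3B, 19.8% lower and 23.6% higher for HuH7, and 5.61% lower and 11.9% higher for PLC/PRF/5. In the fatty acid arm driven by SREBP1, 12 of 13 measured genes fell in HuH7 tumours, 5 in HepG2, 5 in Hep3B and 1 in PLC/PRF/5, with 4 higher in Hep3B and 0 in the other lines. The median log2 fold change of the list was -2.10 in HuH7. FADS2, a desaturase, had 9.30 ± 5.88 CPM in HuH7 tumours and 151 ± 6.22 CPM in HuH7 cultures (log2 fold change -4.19, adjusted p = 4.81e-07), and SCD, another desaturase, 3.89 ± 2.81 CPM in HuH7 tumours and 70.4 ± 2.78 CPM in HuH7 cultures (-4.13, adjusted p = 2.21e-07). SREBF1, which encodes SREBP1, fell in HepG2 (-2.93), Hep3B (-2.13) and HuH7 (-2.52). Of 15 genes of SREBP processing, which include the 4 control members, HepG2 tumours had 3 lower and 0 higher, Hep3B tumours 4 and 4, HuH7 tumours 5 and 1, and PLC/PRF/5 tumours 0 and 2. The Hep3B and PLC/PRF/5 counts are near the shares of all genes. RNF145, a sterol-responsive ubiquitin ligase, fell in HepG2 (-1.34), Hep3B (-2.05) and HuH7 (-1.03), and MBTPS2, the site-2 protease that frees SREBP, in Hep3B (-1.81) and HuH7 (-1.36).

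Of 11 LXR targets and export genes, 2 rose and 3 fell in HepG2, 3 rose and 4 fell in Hep3B, 3 rose and 5 fell in HuH7, and 2 rose and 1 fell in PLC/PRF/5. Those of Hep3B are near the shares of all genes. The list includes the member MYLIP, called lower in HepG2, Hep3B and HuH7. ABCG8, which pairs with ABCG5 to pump sterols into bile, had 115 ± 27.6 CPM in HepG2 tumours and 29.8 ± 3.26 CPM in HepG2 cultures (1.88, adjusted p = 1.04e-06). In Hep3B it had 351 ± 95.1 CPM in tumours, against 3 reads in all cultures together. HuH7 had 9.57 ± 2.54 CPM in tumours and 1.81 ± 0.194 CPM in cultures (1.88, adjusted p = 7.46e-07). LPCAT3, an LXR target that remodels phospholipids, fell in Hep3B (-2.01), HuH7 (-1.76) and PLC/PRF/5 (-1.52). Among 15 isoprenoid branch genes 9 fell and 2 rose in Hep3B, 7 fell and 1 rose in HuH7, 2 fell and 0 rose in HepG2, and 1 fell and 0 rose in PLC/PRF/5, the last 2 lines near the shares of all genes called lower. ZMPSTE24, a protease of prenylated proteins, fell in each, by 1.96, 1.74, 1.66 and 1.21 on the log2 scale in that order of lines. Of 15 sterol transfer genes 6 fell and 1 rose in HuH7, 4 fell and 1 rose in HepG2, 4 fell and 1 rose in Hep3B, near the share of all genes called lower there, and 2 fell and 0 rose in PLC/PRF/5. This list includes the member STARD4, called lower in HuH7. LIPA, the lysosomal lipase that frees cholesterol from esters, fell in HuH7 (-1.97), and LAMP2, a lysosomal membrane protein, in HepG2 (-1.41) and HuH7 (-0.91).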

How the data were processed

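RNA from 28 libraries was measured with DriverMap targeted amplicons from 500 ng of total RNA. The genome build was hg38, per the submitters' processing notes, and no source used here names an aligner or counter. The deposited signal is a read count per amplicon scaled by the authors to 500000 per library. Multiplied by 2 it is CPM, and at least 99.9578% of values per library came out as whole reads within 0.01 (largest departure 0.2041). One damaged cell, KRT18 in PLC/PRF/5 tumour 2, was filled from its library's total.

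Genes with at least 10 reads by edgeR's filterByExpr were kept (13100 of 18961 rows). Levels were TMM-scaled, and log2(CPM + 1) values were fitted in limma 3.58.1 with a trended variance, 8 groups and 20 residual degrees of freedom, under R 4.3.3. Because the deposited values are scaled, edgeR 4.0.16 quasi-likelihood and DESeq2 1.42.0 on the recovered whole reads were alternatives only. The fit was tested on simulated data. Other alternatives were scaling by total counts or DESeq2 size factors, pseudocounts of 0.25 and 5, other filters, amplicon GC and length, a replicate block, each line alone, a minimum of 2-fold, and leaving out each library. TMM over the filtered genes and the comparisons of HuH7 with other lines were chosen after seeing the data. Values per library are given for the 3 called members with the largest absolute log2 fold change in each line and the 4 with the smallest interaction p, every regulator, transport and esterification member is described, and up to 3 called genes are named per context list. Amplicons were placed on GRCh38 with GENCODE 29. The members and lists were chosen with earlier results of these data known.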

Additional observations from a re-analysis of the deposited data

Results flagged for a closer look

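A single tumour stood apart from the other 3 of its line for some members, in 10 of 111 groups examined. The nominal rate of the rule is about 1 in 20. The share of all genes it marks was not computed, and members share the same libraries, so no excess is claimed. HMGCS1 in HuH7 tumour 1 was at 312 CPM, the highest of 4, with the others at 109.7 to 142 CPM. FDPS in PLC/PRF/5 tumour 2 was at 645 CPM, the lowest of 4, with the others at 1228 to 1329 CPM. FDFT1 in PLC/PRF/5 tumour 2 was at 125 CPM, the lowest of 4, with the others at 371 to 403 CPM. CYP51A1 in Hep3B tumour 1 was at 3.51 CPM, the highest of 4, with the others at 0 to 0.259 CPM. SC5D in PLC/PRF/5 tumour 3 was at 0.793 CPM, the lowest of 4, with the others at 5.13 to 5.47 CPM. ACAT2 in HuH7 tumour 1 was at 251 CPM, the highest of 4, with the others at 97.0 to 107 CPM. SOAT1 in PLC/PRF/5 tumour 3 was at 3.40 CPM, the lowest of 4, with the others at 7.25 to 7.70 CPM. MYLIP in HepG2 tumour 1 was at 3.13 CPM, the highest of 4, with the others at 1.69 to 1.77 CPM. MYLIP in Hep3B tumour 1 was at 2.56 CPM, the highest of 4, with the others at 1.01 to 1.16 CPM. NPC2 in HepG2 tumour 3 was at 438 CPM, the highest of 4, with the others at 348 to 361 CPM.

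The change in tumours over cultures differed between the 4 lines, tested as an interaction with limma over all 13100 genes, for 24 of 28 members. The adjusted p was 4.48e-08 for HMGCS1, 4.50e-08 for SOAT2, 3.28e-07 for INSIG1, 4.31e-07 for ACAT2, 4.70e-06 for EBP, 6.15e-06 for NPC1L1, 8.23e-06 for MVK, 1.45e-05 for LSS, 2.34e-05 for NSDHL, 4.86e-05 for IDI1, 5.60e-05 for HSD17B7, 9.48e-05 for DHCR7, 0.000105 for FDFT1, 0.000259 for TM7SF2, 0.000273 for FDPS, 0.000429 for PMVK, 0.00261 for SQLE, 0.00536 for STARD4, 0.00899 for MVD, 0.0105 for NPC1, 0.0109 for CYP51A1, 0.0124 for INSIG2, 0.0240 for NPC2 and 0.0306 for SREBF2.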

How the results depend on the processing

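Over 14 other settings, 1473 of 1560 values for single members kept their side of the threshold without a reversal, 38 lost a call, 43 gained one and 6 reversed. A reversal is a turned sign with a call in either fit, so turned signs of values called in neither fit count as kept. Leaving out 1 library at a time, 3084 of 3136 were kept by this rule, 25 lost a call, 27 gained one and 0 reversed. The values reversed by this rule were all in Hep3B: LSS at -0.26, DHCR7 at -0.89, ACAT2 at -0.92 and SCAP at -0.084 with total counts alone, and INSIG2 at 0.90 and MYLIP at 0.18 with the GC and length trend removed. Uncalled values turned sign in other lines too. FDPS in HepG2 went from 0.13 to -0.10 with total counts alone, and INSIG2 in HuH7 from -0.72 to 0.47 with the GC and length trend removed. With total counts alone, HepG2 had 0 members higher, Hep3B 3 higher and 16 lower, and the mean of lines 2 higher. The GC and length trend removed left 0 higher in HepG2 and 2 lower in Hep3B. A minimum of 2-fold left 0 higher in HepG2, 8 lower and 0 higher in the mean of lines, 1 higher in HuH7 tumours and 1 lower in HuH7 cultures than in the other lines. A pseudocount of 5 gave 1 lower and 1 higher in PLC/PRF/5, and one of 0.25 gave 1 lower in HuH7 cultures. DESeq2 gave 1 higher in HuH7 and 2 lower in PLC/PRF/5, and both DESeq2 and edgeR gave 7 higher in the mean of lines and 1 lower in HuH7 cultures. PLC/PRF/5 had 1 lower when fitted alone and without the 4 tumours numbered 3. Same-numbered tumours and cultures share only a number, with correlations of their deviations from -0.0955 to 0.457. The replicate block gave 11 lower in HepG2, 1 higher in HuH7 and 1 lower in PLC/PRF/5. Leaving out 1 library gave 0 to 1 higher in HepG2, 0 to 1 higher in HuH7 and 2 to 7 higher in PLC/PRF/5. The cause of these shifts was not tested, and the shares of all genes called under these settings are not given here. DESeq2 gave no test of interaction, and lines fitted alone gave no mean or interaction. Genes at a few CPM, such as CYP51A1, INSIG2 and SOAT1, rest on few reads per tumour.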
